A study of Glycine max with 12 samples.

Results

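A set of 169 soybean genes was lower in heated than in unheated flower buds of the recipient line TL1, yet close to or above its unheated level in heated buds of *GmMYB21a-OE2*, which carries extra expression of the MYB transcription factor gene *GmMYB21a*. The genes were chosen from their own values, with L as the mean over the 3 libraries of a group of log2(CPM + 1), where CPM is the count divided by the total count of the library and multiplied by 1e6. Genes with a Glyma identifier qualified with a mean of 2 CPM or more in unheated TL1, a heat change of L of -0.8 or less in TL1 and of -0.3 or more in *GmMYB21a-OE2*, and a line difference without heat of less than 0.5 in size. Of 53808 rows in the count table, 52872 carried a Glyma identifier and 32361 of these had 2 CPM or more in unheated TL1. The TL1 condition was met by 4742 of them, the condition on the unheated lines by 4418 of those, and the condition on *GmMYB21a-OE2* by 169. The limit of 200 genes set for the choice was not reached, and 3 genes left out by name did not meet the thresholds (0 of 3). Every contrast between the 4 groups therefore took part in the choice, and the values below are a description of the 169 genes, with no test of them in the libraries that chose them.

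Flower buds were sequenced by RNA-seq, with 3 libraries in each of 4 groups. *GmMYB21a-OE2* at HT (high temperature, 40 °C by day and 34 °C at night) and TL1 at HT were the heated groups. *GmMYB21a-OE2* at NT (normal temperature, 28 °C and 22 °C) and TL1 at NT were the unheated ones. The study describes its HT treatment as lasting 5 d, and does not give the day on which the buds for sequencing were taken. TL1 is the cultivar Tianlong No. 1, a restorer line of a cytoplasmic male sterility system, and *GmMYB21a-OE2* was made from it with the pTF101.1 vector, by a promoter that is not given in the sources used here. It is 1 overexpression line, and the buds had been taken from several heights of the plant. The treatment entry of all 12 libraries reads high temperature, so the titles, which name HT and NT, were followed. Total counts lay between 32058303 and 39654590 per library. Replicate 3 of heated *GmMYB21a-OE2* stood apart from its group, with a chi-square per degree of freedom over gene counts of 15.5 and 12.2 against replicates 1 and 2, while the other pairs of replicates in the 4 groups had 2.74 to 5.25. Without that library the thresholds chose 178 genes, 160 of them among the 169, and the median line difference at HT over the 169 was 0.82, against 0.84 with it. *GmMYB21a* (Glyma.19G006500), the overexpressed gene, stood at 12.1, 12.2 and 10.5 CPM in heated *GmMYB21a-OE2*, against 1.12, 0.811 and 0.909 CPM in heated TL1. At NT its level was 40.3, 36.3 and 36.7 CPM in *GmMYB21a-OE2*, against 6.32, 5.25 and 5.43 CPM in TL1. It was thus higher in *GmMYB21a-OE2* in every library of either temperature, and lower in the heated than in the unheated libraries of both lines. *GmMYB21a* is not 1 of the 169 genes.

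Male fertility of flowering plants is sensitive to heat, and the tapetum, the innermost layer of the anther wall, is central to it. Tapetal cells feed the developing microspores and make the sporopollenin precursors and hydroxycinnamoyl spermidines of the pollen coat, through a chain of enzymes that is conserved across seed plants. Calcium-binding proteins, ethylene response factors (ERFs), WRKY factors, ubiquitin ligases and cell wall proteins, which also occur in the set, are known from *Arabidopsis thaliana* as early-responding genes of stress and growth signalling. Functions below are those of the named homologue in the species given, and of *Arabidopsis* where none is named. In whole buds, fewer cells of a type and less RNA per cell cannot be told apart.

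Over the 169 genes the heat change of L ranged from -2.48 to -0.80 in TL1, with a median of -0.96, and from -0.30 to 2.54 in *GmMYB21a-OE2*, with a median of -0.08. The remaining 4249 genes that were lower in heated TL1 under the same conditions had a median of -1.19 in TL1 and of -1.16 in *GmMYB21a-OE2*, so most genes with a lower level in heated TL1 were about as much lower in heated *GmMYB21a-OE2*. The line difference at HT, *GmMYB21a-OE2* minus TL1, ranged from 0.19 to 3.29 with a median of 0.84, against a median of 0.01 for the 4249 genes and of 0.00 for the 32361 genes. The thresholds alone keep this difference above 0. A difference of 1 or more was held by 62 of the 169 genes, of 2 or more by 12, and of less than 0.5 by 32.

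**Figure D1:**
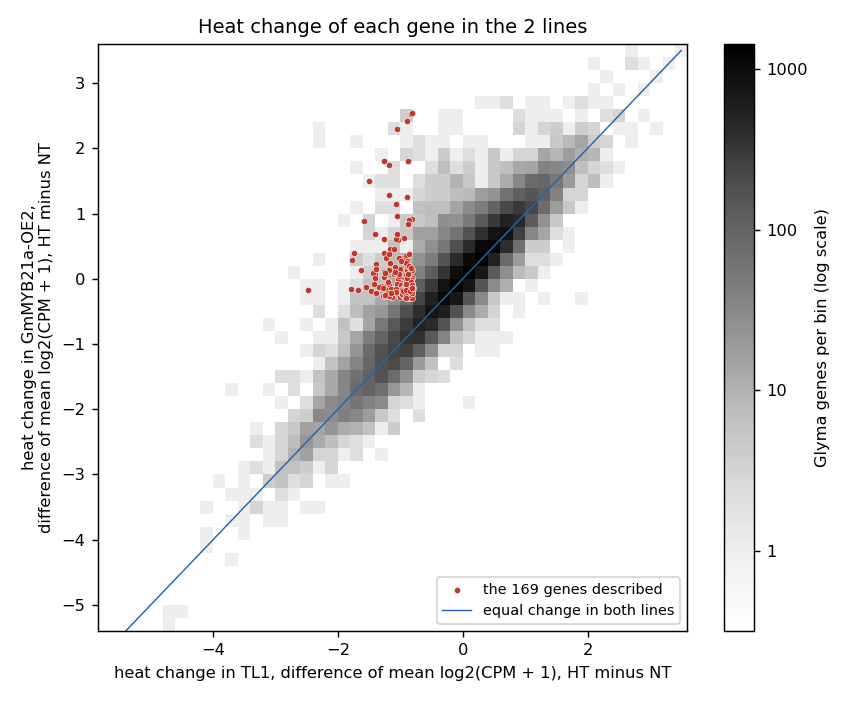
Heat change of L, the mean of log2(CPM + 1), from NT to HT in TL1 (horizontal axis) and in *GmMYB21a-OE2* (vertical axis). Grey squares hold the 32361 Glyma genes of 2 CPM or more, red points are the 169 genes and the blue line marks equal change. The red points lie left of -0.8 and from -0.30 to 2.54 on the vertical axis, beside the main cloud along the line.

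Heated *GmMYB21a-OE2* stood at different levels among the 169 genes. In 147 of them (87.0%) its heat change of L lay between -0.3 and 0.5. Adding 1 to the CPM brings changes of low genes closer together on this scale. The fitted log2 heat change in *GmMYB21a-OE2* had a median of -0.22 over the 169 genes and went down to -0.67. Some of the 147 genes were thus clearly lower in heated than in unheated buds of that line. The heat change of L was between 0.5 and 1 in 11 genes and 1 or more in another 11, in which heated *GmMYB21a-OE2* stood above every unheated library. In 25 genes all 3 libraries of heated *GmMYB21a-OE2* lay above the other 9, against 9.37% of the 32361 genes. Compared with unheated TL1, heated *GmMYB21a-OE2* was higher in 52 of the 169 genes, with a median difference of -0.23 and a range of -0.73 to 2.46.

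Heated TL1 seldom overlapped with heated *GmMYB21a-OE2* or with unheated TL1, whereas the heated and unheated libraries of *GmMYB21a-OE2* overlapped in most genes. All 3 libraries of heated *GmMYB21a-OE2* lay above all 3 of heated TL1 in 160 of the 169 genes, where 18.4% of the 32361 genes showed this order. All 3 libraries of heated TL1 lay below those of unheated TL1 in 169 genes, where 39.1% of the 32361 did. In *GmMYB21a-OE2* the heated libraries all lay above the unheated ones in 39 genes, against 42.2% of the 32361, and all below in 25, against 33.6%. These orders were read in the libraries that chose the genes, so nothing is read from the difference to the background.

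**Figure D2:**
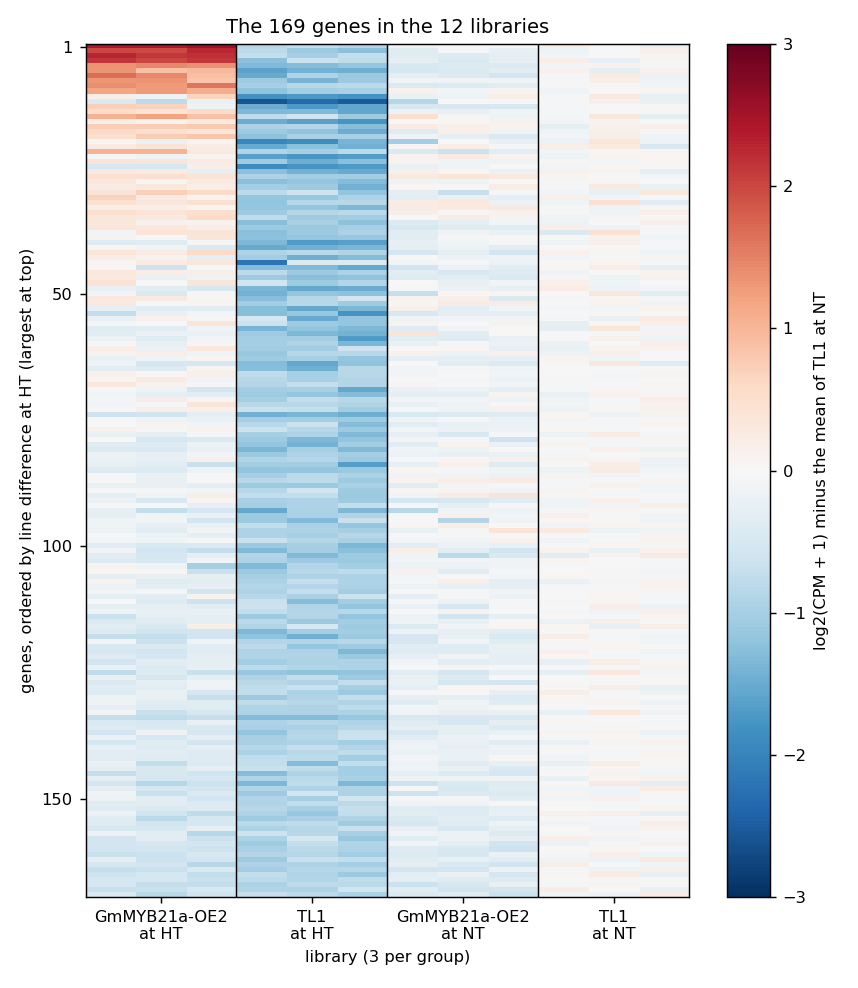
The 169 genes (rows, by line difference at HT) in the 12 libraries (columns, 3 per group). Colour gives log2(CPM + 1) minus the mean of TL1 at NT. Rows near the top are red in *GmMYB21a-OE2* at HT, most others are pale there, and the 3 libraries of TL1 at HT are blue throughout.

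The genes were fitted with all other rows by edgeR's quasi-likelihood test, and called at an adjusted p below 0.05 with an absolute log2 value of 1 or more. The line difference at HT was called higher in 85 of the 169 genes, beside 1.94% of 41260 rows, and lower in 0, beside 0.475%. The heat change was called lower in TL1 in 141, beside 14.7% of rows. In *GmMYB21a-OE2* it was called higher in 12, beside 10.6%, and lower in 0, beside 14.3%. The interaction of line and temperature was called higher in 97, beside 2.43% of 42839 rows. The thresholds of the choice set these directions, and the counts are given with the background for reference alone.

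Without heat, 0 of the 169 genes were called between the lines by edgeR, beside 0.949% of rows, and 0 by DESeq2. An unadjusted edgeR p below 0.05 was held by 67 of them, 59 lower and 8 higher in *GmMYB21a-OE2*, where 24.2% of all rows had one. The line difference at NT was below 0 in 144 genes and above 0 in 25, with a median of -0.18 for L, against -0.05 for the 32361 genes. Unheated TL1 enters both this difference and the choice of genes, and nothing is read from its sign. Levels were modest, with a mean in unheated TL1 of 2.06 to 138 CPM and a median of 7.14, against 14.8 CPM for the 32361 genes, and adding 1 to the CPM makes the difference of L smaller than the fitted log2 difference of a low gene.

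A reading that the choice did not use was made by choosing genes by the same thresholds on 2 libraries of each group and reading them in the library left out. With replicate 1 left out, 180 genes were chosen, and their median line difference at HT was 0.79 in the unused libraries, against 0.83 in those that chose them. With replicate 2 left out, the 194 genes chosen had 0.65 in the unused libraries and 0.83 in the others. With replicate 3 left out, the 189 genes chosen had 0.72 in the unused libraries and 0.76 in the others. The held-out medians averaged 0.72 ± 0.07 (SD, n = 3 readings). These readings share libraries and genes, so the SD is not that of independent replicates. All genes of 2 CPM or more had medians of 0.03, 0.02 and -0.02 in the same libraries.

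In the unused libraries 171 of 180, 188 of 194 and 172 of 189 genes were higher in heated *GmMYB21a-OE2*, that is 95.0%, 96.9% and 91.0%, against 55.2%, 53.7% and 47.7% of all genes. The heat change in TL1 had medians of -0.93, -0.93 and -0.90 there, and that of *GmMYB21a-OE2* had medians of -0.02, -0.11 and -0.10. All thresholds were met again by 80 of 180, 65 of 194 and 86 of 189 genes in the single unused libraries. The share of all genes that met them there was not computed, so nothing is read from these counts. With 1 library a group these values have no replicate check, and no test was made of them. The lists shared 126, 132 and 126 genes with the 169, which is 70.0%, 68.0% and 66.7% of each list and 74.6%, 78.1% and 74.6% of the 169.

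**Figure D3:**
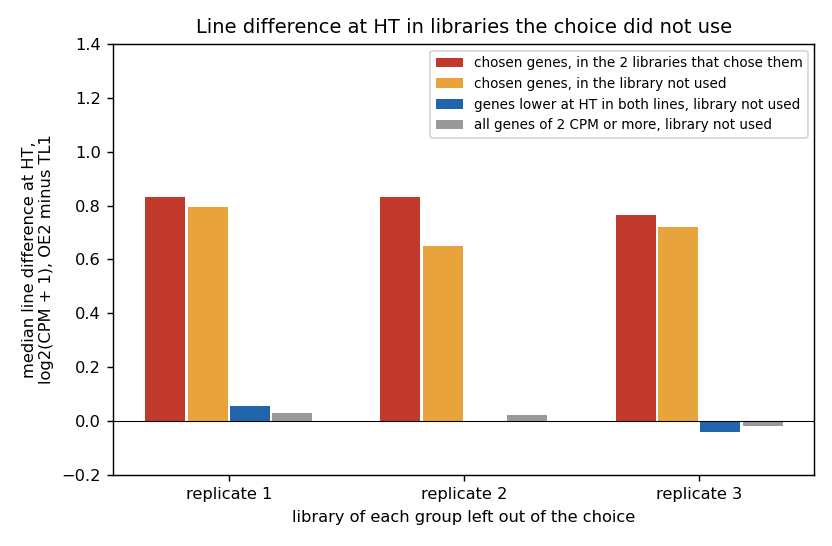
Median line difference at HT (*GmMYB21a-OE2* minus TL1, log2(CPM + 1)) for genes chosen without replicate 1, 2 or 3. Bars show the chosen genes in the libraries that chose them (red) and in the unused library (orange), the genes lower at HT in both lines (blue) and all genes (grey) in the unused library. Orange bars stand at 0.79, 0.65 and 0.72, and grey bars between -0.02 and 0.03.

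Of the 169 genes, 65 had a row in the annotation table that accompanies the study, whose readable rows cover 578 genes, and 60 of these carried a Swiss-Prot name. That table lists genes the study called between the lines at HT in these same libraries. Accordingly 48 of the 62 genes with a line difference of 1 or more were annotated, and 0 of the 32 genes under 0.5 were. The gene groups below, made from annotation words, are thus no independent evidence of a line difference at HT. They held 34 of the 169 genes. The remaining 104 genes are known here by identifier alone, with a median line difference at HT of 0.62, against 1.27 for the 65.

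By number of genes in the set, the largest annotation group was that of the tapetum and pollen wall. Its words were chosen with earlier results of these data known, so nothing is read from its size. Of 19 such genes in the table, 9 belonged to the 169. All 9 were called lower in heated TL1, 0 were called higher or lower with heat in *GmMYB21a-OE2*, and 9 were called higher in heated *GmMYB21a-OE2* than in heated TL1. The shares of all rows were 14.7% lower in TL1, 10.6% higher and 14.3% lower in *GmMYB21a-OE2* and 1.94% higher at HT, and the thresholds of the choice set these directions in the 9 genes. Over these 9 the median heat change of L was -1.56 in TL1 and 0.01 in *GmMYB21a-OE2*. Their summed level was 123 to 160 CPM in heated *GmMYB21a-OE2*, against 43.8 to 45.5 CPM in heated TL1. At NT it was 118 to 147 CPM in *GmMYB21a-OE2*, against 138 to 164 CPM in TL1. Heated *GmMYB21a-OE2* thus overlapped with both unheated groups, and heated TL1 lay apart from all of them.

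*PKSA* (Glyma.01G073600) encodes type III polyketide synthase A, which in *Arabidopsis* condenses fatty acyl-CoA into the pyrones that become sporopollenin. It stood at 17.7, 13.6 and 20.97 CPM in heated *GmMYB21a-OE2*, against 3.21, 3.96 and 3.36 CPM in heated TL1. At NT, *PKSA* stood at 12.9, 24.4 and 23.4 CPM in *GmMYB21a-OE2*, against 24.7, 27.2 and 20.96 CPM in TL1. Its heat change of L in TL1, at -2.48, was the furthest below 0 among the 169 genes. The fitted log2 heat change was -0.35 ± 0.21 (± SE here and below) in *GmMYB21a-OE2* and -2.80 ± 0.11 in TL1, and only heated TL1 stood apart from the other groups.

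*PKSB* (Glyma.11G097900), the second synthase of the same step, stood at 8.06, 6.53 and 8.14 CPM in heated *GmMYB21a-OE2*, against 1.23, 1.39 and 2.27 CPM in heated TL1. At NT, *PKSB* stood at 3.28, 7.68 and 6.48 CPM in *GmMYB21a-OE2*, against 6.71, 10.1 and 6.61 CPM in TL1. Again the heated TL1 libraries were all below every other library, and the heated *GmMYB21a-OE2* libraries overlapped with both unheated groups. The fitted line difference at HT was 2.21 ± 0.21 on the log2 scale.

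*4CLL1* (Glyma.18G076900), named ACOS5 in *Arabidopsis*, encodes the acyl-CoA synthetase that supplies both polyketide synthases with their substrate. It stood at 46.3, 42.6 and 55.8 CPM in heated *GmMYB21a-OE2*, against 17.96, 18.7 and 19.3 CPM in heated TL1. At NT, *4CLL1* stood at 34.7, 42.1 and 44.7 CPM in *GmMYB21a-OE2*, against 43.5, 47.2 and 39.6 CPM in TL1. The lines were well apart at HT, with a fitted log2 difference of 1.36 ± 0.10, and mixed at NT.

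*A6* (Glyma.13G173200) encodes a glucan endo-1,3-beta-glucosidase of the tapetum, related to the enzymes that dissolve the callose around microspore tetrads. It was at 5.33, 4.01 and 7.93 CPM in heated *GmMYB21a-OE2*, against 0.586, 0.685 and 0.606 CPM in heated TL1. At NT, *A6* was at 3.85, 4.12 and 5.32 CPM in *GmMYB21a-OE2*, against 4.46, 5.78 and 3.71 CPM in TL1. Heated TL1 was below 1 CPM in each library while the 3 other groups overlapped, and the fitted line difference at HT was 3.18 ± 0.28.

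Both genes annotated as spermidine hydroxycinnamoyl transferase (*SHT*), which in *Arabidopsis* makes the hydroxycinnamoyl spermidines of the pollen coat, were in the set. Glyma.17G061000 stood at 30.6, 28.8 and 33.8 CPM in heated *GmMYB21a-OE2*, against 9.48, 8.799 and 9.27 CPM in heated TL1. At NT, Glyma.17G061000 stood at 33.9, 37.96 and 34.2 CPM in *GmMYB21a-OE2*, against 28.5, 33.8 and 32.8 CPM in TL1. The heated *GmMYB21a-OE2* libraries lay just under the unheated ones of that line, and far above heated TL1, at a fitted log2 difference of 1.75 ± 0.09. The second copy, Glyma.10G061300, was at 1.91, 1.84 and 2.41 CPM in heated *GmMYB21a-OE2*, against 0.669, 0.685 and 0.757 CPM in heated TL1, and its lines were likewise apart.

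*BHLH10* (Glyma.08G089100) encodes 1 of the basic helix-loop-helix partners of the tapetal regulator DYSFUNCTIONAL TAPETUM1 in *Arabidopsis*, and was the only transcription factor among the 9. It stood at 3.26, 5.07 and 5.72 CPM in heated *GmMYB21a-OE2*, against 1.896, 2.23 and 1.03 CPM in heated TL1. At NT, *BHLH10* stood at 4.04, 4.78 and 4.79 CPM in *GmMYB21a-OE2*, against 5.99, 6.19 and 5.99 CPM in TL1. Heated *GmMYB21a-OE2* spread over the unheated range of its line, and its lowest library was still above the highest of heated TL1.

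*SSL13* (Glyma.15G029300), for a strictosidine synthase-like protein that in *Arabidopsis* is needed for the pollen wall, was at 12.7, 12.9 and 16.2 CPM in heated *GmMYB21a-OE2*, against 6.02, 4.46 and 4.82 CPM in heated TL1. *PER9* (Glyma.17G253800), for a class III peroxidase, was at 8.76, 7.51 and 9.37 CPM in heated *GmMYB21a-OE2*, against 4.46, 4.39 and 2.39 CPM in heated TL1. Their fitted heat changes in TL1 were -1.74 ± 0.11 for *SSL13* and -1.43 ± 0.16 for *PER9*, and those in *GmMYB21a-OE2* were -0.27 ± 0.12 and -0.03 ± 0.12, so that both lay near their unheated level in that line.

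The other 10 genes of the tapetum and pollen wall group were not in the set, and several of them act in the same chain of enzymes. *FAR2* (Glyma.02G169100), for the fatty acyl-CoA reductase also named MALE STERILITY2, averaged 3.26 ± 0.556 CPM in heated *GmMYB21a-OE2* and 0.557 ± 0.392 CPM in heated TL1 (SD, n = 3 each). At NT, *FAR2* averaged 10.4 ± 2.29 CPM in *GmMYB21a-OE2*, against 8.79 ± 3.91 CPM for TL1. Its heat change was called lower in both lines, with fitted log2 values of -1.81 ± 0.18 in *GmMYB21a-OE2* and -3.99 ± 0.31 in TL1 (SE), so heated *GmMYB21a-OE2* stood between heated TL1 and the unheated groups. *CYP704B1* (Glyma.07G043300), for the fatty acid hydroxylase of the chain, averaged 3.58 ± 0.503 CPM in heated *GmMYB21a-OE2* and 0.678 ± 0.094 CPM in heated TL1, and missed the threshold of -0.3 in *GmMYB21a-OE2*.

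In the opposite direction, the *Ole e 1*-like gene Glyma.15G082300 averaged 2.36 ± 0.098 CPM in heated *GmMYB21a-OE2* and 5.18 ± 0.819 CPM in heated TL1 (SD, n = 3 each). The pollen-specific leucine-rich repeat extensin gene Glyma.05G121700 averaged 0.463 ± 0.193 CPM in heated *GmMYB21a-OE2* and 1.28 ± 0.167 CPM in heated TL1. Both were called lower in heated *GmMYB21a-OE2* than in heated TL1, the only 2 of the 19 that were, and 17 were called higher. Of all rows, 0.475% were called lower and 1.94% higher, and the 19 come from genes that the study called at HT. Over all 19 genes the heat change was called lower in 5 and higher in 2 in *GmMYB21a-OE2*, beside 14.3% and 10.6% of all rows, and lower in 17 in TL1, beside 14.7%. The summed level of the 19 genes was 148 to 191 CPM in heated *GmMYB21a-OE2*, against 59.0 to 62.6 CPM in heated TL1, and 182 to 221 CPM in unheated *GmMYB21a-OE2*, against 212 to 255 CPM in unheated TL1. None of the 19 was at 0 in any library (0 of 19). The part of the number of tapetum or pollen cells per bud in these values was not tested.

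**Figure D4:**
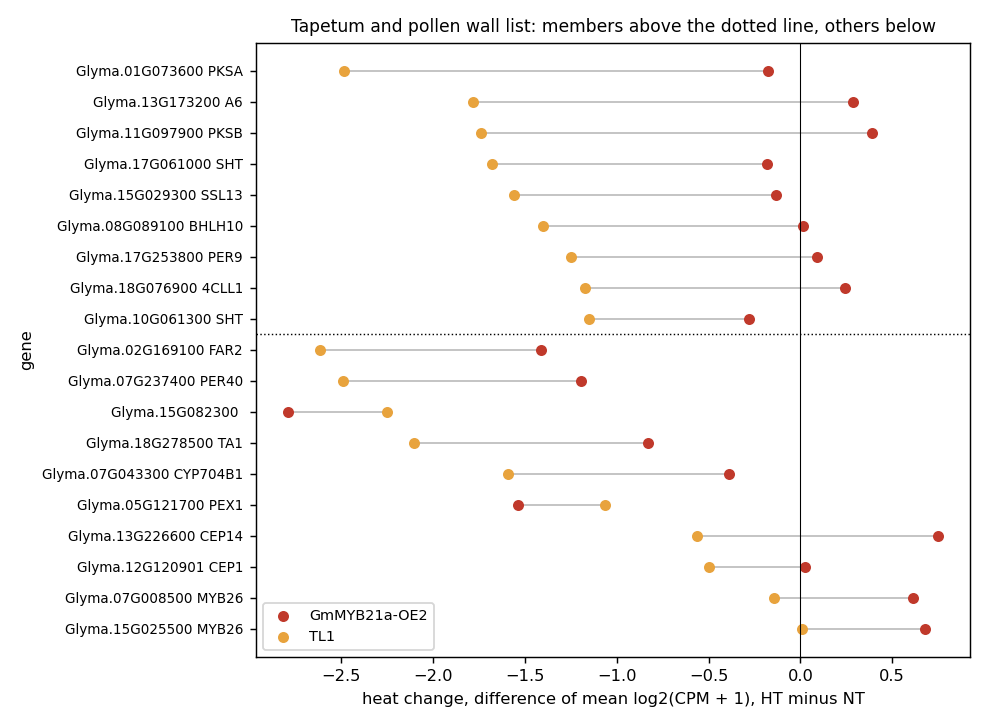
Heat change of L (HT minus NT) of the 19 tapetum and pollen wall genes in *GmMYB21a-OE2* (red) and TL1 (orange). Above the dotted line are the 9 genes of the set, with TL1 from -2.48 to -1.15 and *GmMYB21a-OE2* from -0.28 to 0.39. Below it are the 10 other genes, 2 of which lie further left in *GmMYB21a-OE2*.

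In each of the 10 genes with the largest line differences of L at HT, heated *GmMYB21a-OE2* lay above all unheated libraries. Heated *GmMYB21a-OE2* enters the value by which these 10 were picked, so nothing is read from this order. Among the 32361 genes, 9.37% had heated *GmMYB21a-OE2* above the other 9 libraries. The heat change in *GmMYB21a-OE2* was called higher in 12 of the 169 genes, and these are named below. Without replicate 3 of heated *GmMYB21a-OE2*, 14 were called, 12 of them the same genes.

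*ERF017* (Glyma.13G112400), for an ethylene response factor of the AP2/ERF class, had the largest line difference of L, at 3.29. It stood at 16.6, 16.5 and 18.3 CPM in heated *GmMYB21a-OE2*, against 0.809, 0.964 and 0.788 CPM in heated TL1. At NT, *ERF017* stood at 2.03, 2.17 and 2.22 CPM in *GmMYB21a-OE2*, against 2.73, 2.34 and 1.84 CPM in TL1. The heated *GmMYB21a-OE2* libraries were far above all others and heated TL1 was below all others, with a fitted line difference at HT of 4.30 ± 0.15 on the log2 scale and heat changes of 2.87 ± 0.12 in *GmMYB21a-OE2* and -1.44 ± 0.26 in TL1. On the fitted scale 1 gene of the set was higher, the unannotated Glyma.14G212200, named here after its values were seen, with 4.58 ± 0.26 for a line difference of L of 2.57. It stood at 7.9998, 5.598 and 6.06 CPM in heated *GmMYB21a-OE2*, against 0.167, 0.3296 and 0.303 CPM in heated TL1, and at 1.49, 1.66 and 1.83 CPM in *GmMYB21a-OE2*, against 2.92, 1.99 and 2.901 CPM in TL1 at NT. Its heated TL1 libraries were below, and its heated *GmMYB21a-OE2* libraries above, all others. A second AP2/ERF gene of the set, *RAP2-3* (Glyma.02G016100), known in *Arabidopsis* for the response to low oxygen, had another pattern. It stood at 9.09, 8.297 and 8.45 CPM in heated *GmMYB21a-OE2*, against 3.904, 3.09 and 3.73 CPM in heated TL1. At NT, *RAP2-3* stood at 12.3, 8.57 and 9.94 CPM in *GmMYB21a-OE2*, against 10.7, 10.4 and 11.8 CPM in TL1, so that its heated *GmMYB21a-OE2* libraries overlapped with the unheated ones of that line.

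*PUB21* (Glyma.18G042100) encodes a U-box ubiquitin ligase, a protein that marks others for degradation, and had the largest heat change of L in *GmMYB21a-OE2*, at 2.54. It stood at 29.8, 26.5 and 27.7 CPM in heated *GmMYB21a-OE2*, against 2.84, 2.18 and 2.79 CPM in heated TL1. At NT, *PUB21* stood at 3.87, 3.85 and 4.21 CPM in *GmMYB21a-OE2*, against 4.96, 5.31 and 5.65 CPM in TL1. No library of heated *GmMYB21a-OE2* came near any other group, and the fitted heat changes were 2.68 ± 0.10 in *GmMYB21a-OE2* and -1.04 ± 0.16 in TL1. The second gene with this name in the set, Glyma.09G172100, was at 2.498, 2.12 and 2.44 CPM in heated *GmMYB21a-OE2*, against 1.06, 0.786 and 0.515 CPM in heated TL1, and its fitted heat change in *GmMYB21a-OE2* was 0.15 ± 0.19. The RING-H2 ligase gene *ATL2* (Glyma.15G150500), early-responding to chitin in *Arabidopsis*, was at 16.8, 12.2 and 10.7 CPM in heated *GmMYB21a-OE2*, against 3.99, 4.08 and 4.91 CPM in heated TL1, without overlap of the lines.

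*PUMP4* (Glyma.04G092100) encodes a mitochondrial uncoupling protein, a carrier of the inner membrane. It stood at 33.2, 32.6 and 40.05 CPM in heated *GmMYB21a-OE2*, against 3.93, 2.99 and 2.55 CPM in heated TL1. At NT, *PUMP4* stood at 5.64, 7.22 and 6.31 CPM in *GmMYB21a-OE2*, against 6.69, 7.56 and 8.39 CPM in TL1. The separation resembled that of *PUB21*, with a fitted line difference at HT of 3.46 ± 0.14. Glyma.17G065300, which has no annotation here, ranked below *PUB21* by line difference of L, at 15.4, 14.05 and 15.3 CPM in heated *GmMYB21a-OE2*, against 0.558, 1.37 and 1.18 CPM in heated TL1, and at 2.09, 1.76 and 2.05 CPM in *GmMYB21a-OE2*, against 3.29, 2.16 and 2.81 CPM in TL1 at NT.

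Genes of calcium signalling were represented by 4 of the 21 in the table. *PBP1* (Glyma.13G283600), which encodes a small calcium-binding partner of the kinase PINOID in *Arabidopsis*, stood at 31.2, 26.5 and 17.8 CPM in heated *GmMYB21a-OE2*, against 2.57, 4.41 and 3.67 CPM in heated TL1. At NT, *PBP1* stood at 7.397, 6.65 and 5.81 CPM in *GmMYB21a-OE2*, against 8.75, 10.9 and 7.95 CPM in TL1. The heated *GmMYB21a-OE2* libraries were all the highest but spread widely, replicate 3 being the lowest of them, and the fitted line difference was 2.80 ± 0.20, against 2.99 without that library. Glyma.08G053500, named after the olive pollen allergen Ole e 8, a calcium-binding protein, was at 32.9, 26.7 and 30.97 CPM in heated *GmMYB21a-OE2*, against 10.2, 10.98 and 9.79 CPM in heated TL1, with all heated *GmMYB21a-OE2* libraries only slightly above the unheated ones, at 23.2, 22.95 and 25.3 CPM in *GmMYB21a-OE2*, against 24.8, 26.4 and 25.6 CPM in TL1. The respiratory burst oxidase gene *RBOHB* (Glyma.20G236200), taken into this group by its calcium-binding domain, was at 3.23, 2.47 and 4.07 CPM in heated *GmMYB21a-OE2*, against 1.45, 1.52 and 1.303 CPM in heated TL1, and its call at HT was lost when replicate 3 of heated *GmMYB21a-OE2* was left out, at a log2 difference of 0.96. The last of the 4, *RBOHE* (Glyma.09G073200), for another oxidase of this family, was at 1.82, 1.59 and 3.02 CPM in heated *GmMYB21a-OE2*, against 0.9203, 1.496 and 0.697 CPM in heated TL1. It was the only 1 of the 4 not called at HT, at 1.02 ± 0.32, and its lines were only narrowly apart.

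Among the 32 hormone genes of the table, 5 were in the set. Glyma.14G195200, for the probable protein phosphatase 2C 25, stood at 46.8, 49.9 and 47.6 CPM in heated *GmMYB21a-OE2*, against 6.53, 6.62 and 7.39 CPM in heated TL1. At NT, this phosphatase gene stood at 12.7, 13.2 and 13.2 CPM in *GmMYB21a-OE2*, against 16.9, 19.3 and 17.4 CPM in TL1. Replicates were tight, the 4 groups did not overlap, and the order of the groups was heated *GmMYB21a-OE2*, unheated TL1, unheated *GmMYB21a-OE2* and heated TL1, from high to low. *ACS1* (Glyma.08G018000), for the aminocyclopropane carboxylate synthase that commits methionine to ethylene, was at 35.00, 32.9 and 34.9 CPM in heated *GmMYB21a-OE2*, against 11.3, 12.98 and 13.6 CPM in heated TL1. At NT, *ACS1* was at 27.8, 25.2 and 27.1 CPM in *GmMYB21a-OE2*, against 24.1, 22.4 and 27.3 CPM in TL1. Heated *GmMYB21a-OE2* was above all unheated libraries by a small margin, and the heat change in TL1 missed the call by its size, at -0.97 ± 0.09. *AOG* (Glyma.07G215500), for the abscisate glucosyltransferase described in azuki bean, which inactivates abscisic acid, was low throughout, at 2.302, 3.58 and 3.54 CPM in heated *GmMYB21a-OE2*, against 0.446, 0.634 and 0.788 CPM in heated TL1.

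Cell wall genes gave 6 of the 46 in the table. Over the 46, which the table holds for a call at HT, 31 were called higher and 15 lower in heated *GmMYB21a-OE2* than in heated TL1, beside 1.94% and 0.475% of all rows. With heat, 14 were called higher and 15 lower in *GmMYB21a-OE2*, beside 10.6% and 14.3%, and 20 lower in TL1, beside 14.7%. The 6 genes of the set, whose directions the thresholds set, were all called lower in heated TL1 and higher in heated *GmMYB21a-OE2* than in heated TL1. Both *GATL9* genes, for probable galacturonosyltransferase-like proteins of the cell wall, were among the 10 largest line differences of L. Glyma.13G067900 stood at 12.8, 13.04 and 8.84 CPM in heated *GmMYB21a-OE2*, against 1.65, 1.09 and 1.58 CPM in heated TL1, and at 4.09, 4.12 and 4.04 CPM in *GmMYB21a-OE2*, against 4.29, 5.25 and 4.09 CPM in TL1 at NT. Glyma.19G016100 stood at 15.2, 16.3 and 14.1 CPM in heated *GmMYB21a-OE2*, against 2.06, 2.48 and 2.64 CPM in heated TL1, and at 6.801, 5.698 and 6.59 CPM in *GmMYB21a-OE2*, against 5.65, 6.17 and 6.55 CPM in TL1 at NT. Each had all heated *GmMYB21a-OE2* libraries above, and all heated TL1 libraries below, the unheated ones, and how reads were shared between such close copies is not given in the sources used here. *AGP22* (Glyma.07G087200), for a short arabinogalactan peptide, was at 6.85, 6.81 and 3.595 CPM in heated *GmMYB21a-OE2*, against 1.03, 0.913 and 1.18 CPM in heated TL1, with replicate 3 lowest in heated *GmMYB21a-OE2* and no overlap of the lines, and its fitted line difference was 2.45 ± 0.25, against 2.69 without that library.

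Glyma.09G042400, without annotation, and the extensin gene Glyma.09G042500 lie next to each other in identifier order on chromosome 9. The unannotated gene stood at 65.4, 60.04 and 75.3 CPM in heated *GmMYB21a-OE2*, against 11.6, 12.98 and 13.3 CPM in heated TL1, and at 17.4, 18.3 and 19.3 CPM in *GmMYB21a-OE2*, against 24.7, 24.7 and 22.8 CPM in TL1 at NT, so that heated *GmMYB21a-OE2* exceeded all other libraries. The extensin gene stood at 14.5, 12.9 and 15.5 CPM in heated *GmMYB21a-OE2*, against 6.89, 7.45 and 5.18 CPM in heated TL1, and at 12.8, 14.7 and 13.2 CPM in *GmMYB21a-OE2*, against 13.1, 14.8 and 17.5 CPM in TL1 at NT, where heated *GmMYB21a-OE2* and the unheated groups overlapped. The thresholds set the low level of both genes in heated TL1, and this pair differed in heated *GmMYB21a-OE2*. The other side-by-side pair of the set, Glyma.11G194600 and Glyma.11G194700, had closer line differences of L at HT, 0.86 and 0.70.

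Other annotation groups had 1 to 2 genes in the set. *WRKY40* (Glyma.13G370100), for a transcription factor of the response to pathogens and abscisic acid, stood at 13.3, 12.1 and 11.9 CPM in heated *GmMYB21a-OE2*, against 5.58, 4.39 and 4.94 CPM in heated TL1, and at 8.101, 7.22 and 7.78 CPM in *GmMYB21a-OE2*, against 9.53, 10.5 and 11.2 CPM in TL1 at NT. It was 1 of 15 WRKY and VQ genes of the table, 8 of which were called lower at NT in *GmMYB21a-OE2*, beside 0.710% of all rows, where *WRKY40* Glyma.13G370100 was not called. The leucine-rich repeat receptor kinase gene Glyma.02G051300 was the only 1 of 52 receptor and immunity genes, at 5.25, 5.45 and 7.35 CPM in heated *GmMYB21a-OE2*, against 3.15, 2.105 and 1.91 CPM in heated TL1. *MYB4* (Glyma.02G005600), named after a rice factor, was the only 1 of 11 MYB genes, at 2.41, 2.02 and 2.52 CPM in heated *GmMYB21a-OE2*, against 1.31, 0.7100 and 1.03 CPM in heated TL1, and its call at HT was lost without replicate 2 of heated TL1, at a log2 difference of 0.96. The heat stress factor gene *HSFB4* (Glyma.14G083700) stood at 5.698, 5.598 and 6.61 CPM in heated *GmMYB21a-OE2*, against 2.900, 2.26 and 3.21 CPM in heated TL1, and at 5.83, 8.28 and 6.51 CPM in *GmMYB21a-OE2*, against 8.13, 7.499 and 7.39 CPM in TL1 at NT, so its heated *GmMYB21a-OE2* libraries reached no higher than the unheated ones.

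The 11 genes with words of flavonoid enzymes included 2 of the set, and neither acts in the core pathway. Over the 11, which the table holds for a call at HT, 11 were called higher in heated *GmMYB21a-OE2* than in heated TL1, beside 1.94% of all rows. With heat, 9 were called lower in TL1, beside 14.7%, and in *GmMYB21a-OE2* 1 higher and 0 lower, beside 10.6% and 14.3%. The interaction was called higher in 11, beside 2.43%. Glyma.13G238600 encodes 3-ketoacyl-CoA synthase 10, named FIDDLEHEAD in *Arabidopsis*, an enzyme of cuticle lipids that shares a domain name with chalcone synthase. It stood at 17.2, 17.3 and 17.8 CPM in heated *GmMYB21a-OE2*, against 4.66, 4.92 and 3.51 CPM in heated TL1, and at 12.03, 11.1 and 10.7 CPM in *GmMYB21a-OE2*, against 7.97, 10.9 and 11.1 CPM in TL1 at NT, with heated *GmMYB21a-OE2* highest by a small margin. *3AT2* (Glyma.13G302500), for an anthocyanin acyltransferase, was low, at 2.16, 1.19 and 1.31 CPM in heated *GmMYB21a-OE2*, against 0.474, 0.228 and 0.364 CPM in heated TL1. None of the 13 C2H2 and CCCH zinc finger genes (0 of 13) and none of the 3 mRNA turnover genes (0 of 3) were in the set.

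Several further genes of the set, chosen after their values were seen, act on surface lipids and metal or oxalate handling. *CER2* (Glyma.17G206400), for a protein with a part in making very long chain fatty acids for cuticular wax, was at 5.75, 6.51 and 4.96 CPM in heated *GmMYB21a-OE2*, against 0.9203, 1.17 and 0.545 CPM in heated TL1. *AAE3* (Glyma.11G198300), an oxalate-CoA ligase, was at 4.18, 5.35 and 5.62 CPM in heated *GmMYB21a-OE2*, against 0.586, 0.913 and 0.909 CPM in heated TL1, and its heat change was called higher in *GmMYB21a-OE2*, at 1.14 ± 0.19. *HIPP39* (Glyma.16G178400), for a heavy metal-associated isoprenylated protein, was at 9.66, 9.15 and 4.83 CPM in heated *GmMYB21a-OE2*, against 1.31, 0.964 and 1.18 CPM in heated TL1, replicate 3 being the lowest of heated *GmMYB21a-OE2*. In all 3 the lines did not overlap at HT, and heated TL1 was below unheated TL1, at 2.17, 3.05 and 1.68 CPM for *CER2*, 2.53, 3.23 and 2.46 CPM for *AAE3* and 5.29, 5.42 and 5.61 CPM for *HIPP39*.

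A gene name was shared with another row of the annotation table by 26 of the 58 genes that carry one, and 4 names occurred more than once within the set, on 8 genes (*GATL9*, *PUB21*, *SHT* and *DIR1*). Copies outside the set missed 1 or more of the thresholds. The *ERF017* copy Glyma.17G047300 had heat changes of L of 2.45 in *GmMYB21a-OE2* and -0.72 in TL1, and the 4 *WRKY40* copies outside the set had line differences at NT of -1.38 to -0.91. The 2 *DIR1* genes are named after a lipid-transfer protein of systemic resistance. Glyma.04G138700 was at 70.7, 64.6 and 49.1 CPM in heated *GmMYB21a-OE2*, against 28.9, 21.2 and 24.00 CPM in heated TL1. Glyma.08G324100 was at 2.44, 1.19 and 2.23 CPM in heated *GmMYB21a-OE2*, against 0.363, 0.3296 and 0.151 CPM in heated TL1, and in both genes heated TL1 lay below all other libraries.

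By position the 169 genes were spread over all 20 chromosomes. Chromosome 20 held 3 of them (1.78%) and chromosome 13 held 15 (8.88%), beside 4.38% and 7.09% of the 32361 genes. Within 5 identifiers of each other lay 4 pairs, 2 of them side by side, and no background was computed for pairs. Replicates of the set were about as variable in heated TL1 as in heated *GmMYB21a-OE2*. The median SD of log2(CPM + 1) was 0.143 in heated *GmMYB21a-OE2* and 0.147 in heated TL1, and 0.111 in unheated *GmMYB21a-OE2* and 0.126 in unheated TL1. Over the 32361 genes the medians were lower in each group. They were 0.117 in heated *GmMYB21a-OE2* and 0.088 in heated TL1, and 0.089 in unheated *GmMYB21a-OE2* and 0.078 in unheated TL1. Summed over the set, the level was 2108 to 2241 CPM in heated *GmMYB21a-OE2*, against 955 to 989 CPM in heated TL1, and 1928 to 2002 CPM in unheated *GmMYB21a-OE2*, against 2160 to 2211 CPM in unheated TL1. Only heated TL1 stood far from the rest in this sum, which the thresholds of the choice set in advance.

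**Figure D5:**
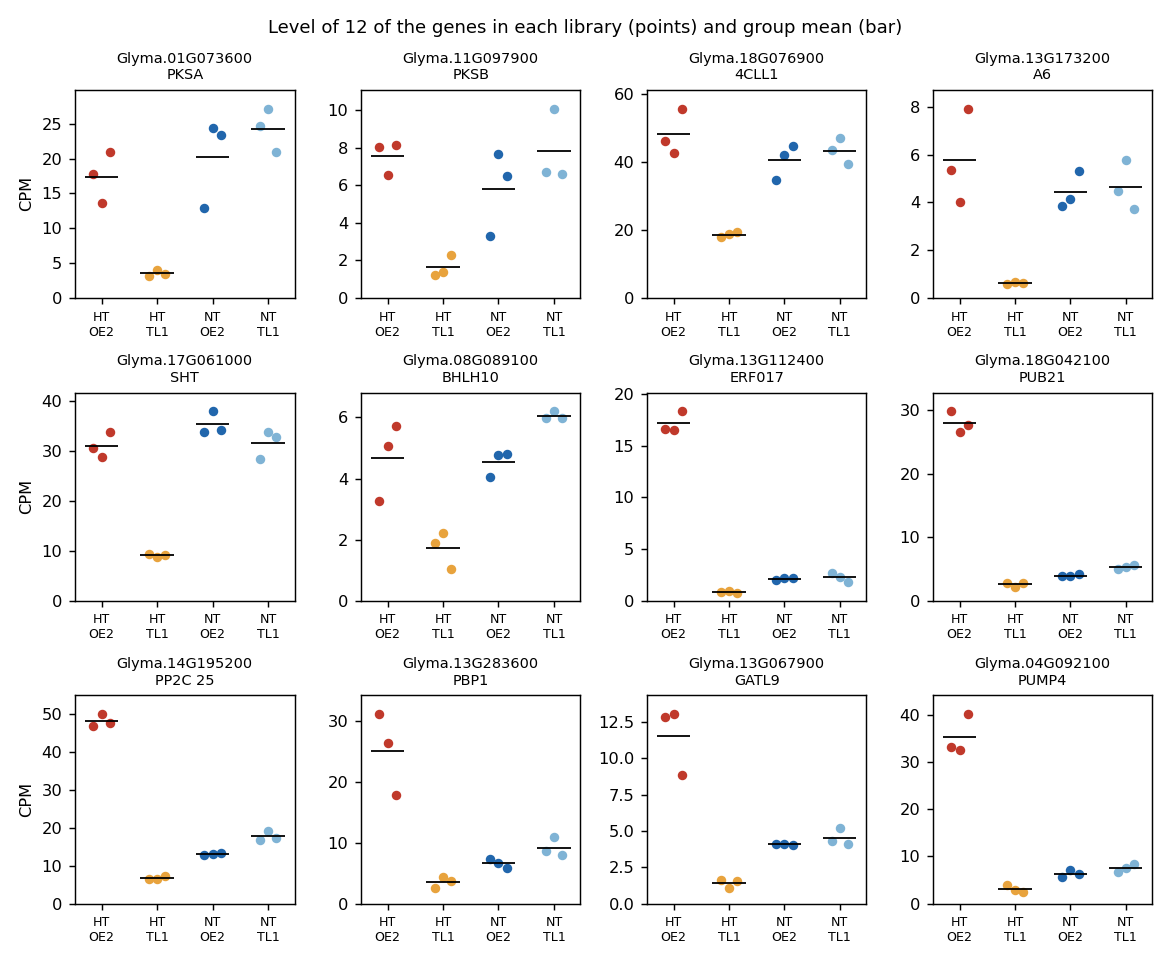
CPM of 12 genes of the set in each library (points) with the group mean (bar), for *GmMYB21a-OE2* (OE2) and TL1 at HT and at NT. The first 6 panels are tapetum and pollen wall genes, in which heated TL1 alone is low (3.21 to 3.96 CPM for *PKSA*). The last 6 are from the genes with the largest line differences of L at HT, and heated *GmMYB21a-OE2* is also the highest in them (16.5 to 18.3 CPM for *ERF017*).

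The thresholds cut through a continuous range. Just inside the limit of -0.8 in TL1 the heat changes of L were -0.802, -0.807 and -0.807, and just outside they were -0.798, -0.797 and -0.796, with line differences at HT of 0.52, 0.40 and 0.27. Just inside the limit of -0.3 in *GmMYB21a-OE2* the values were -0.299, -0.298 and -0.293, and just outside -0.301, -0.302 and -0.303, with line differences at HT of 0.62, 0.75 and 0.37.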

How the data were processed

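RNA-seq libraries of flower buds were grouped by their titles into 4 groups of 3. The values deposited by the authors are raw whole-number counts per gene in 1 table. The submitters' processing notes name StringTie 2.1.3b without a role. Read trimming and filtering are stated, whereas the aligner, genome build and use of strand are not given in the sources used here, so close copies and overlapping genes may share reads. Differences of L use CPM by column totals plus 1. Fits used edgeR 4.0.16 in R 4.3.3 (TMM, filterByExpr, quasi-likelihood F-test, Benjamini-Hochberg adjustment over all rows tested), on the 6 libraries of each comparison, or all 12 for the interaction, and were tested on simulated counts. The ± (SE) of a fitted log2 value is an approximate standard error, the absolute log2 value divided by the square root of its F statistic. DESeq2 1.42.0, RLE size factors, no filter, Glyma rows only, all 12 libraries, a replicate block and each library left out were alternatives. The members and gene lists were chosen with earlier results of these data known. Annotation words were matched at the start of a word, a rule set after the lists were read. Genes named by rule are the largest line differences and heat changes of *GmMYB21a-OE2*, and up to 3 per list, with at most 2 unannotated genes. The 3 smallest heat changes of *GmMYB21a-OE2* were also picked, and that limit left these unannotated genes out. All tapetum genes of the set, some further members and some copies and list genes outside it were named after their values were seen. The 3 libraries of a group are independent biological replicates as stated by the study, and they differed by more than counting noise. Tables and plots used Python 3.11.15, numpy 2.4.6, pandas 2.3.3 and matplotlib 3.10.9.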

Additional observations from a re-analysis of the deposited data

Results flagged for a closer look

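The effect of the line differed between the temperatures in 97 of the 169 genes, as called by the interaction term of edgeR's quasi-likelihood test over all 12 libraries. All 97 had a larger line difference at HT than at NT, and 2.43% of 42839 rows were called in this direction. Because the thresholds that chose the genes set this direction, the count is a description. Outlying values of single genes were not tested, since the groups hold 3 libraries each. Over all gene counts, replicate 3 of heated *GmMYB21a-OE2* stood apart from its group, with a chi-square per degree of freedom of 15.5 and 12.2 against the other replicates, and without it 96 genes were called by the interaction.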

How the results depend on the processing

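The choice of genes depended most on the value added to the CPM. With 5 in place of 1, 42 genes met the thresholds, 28 of them among the 169, and the median line difference at HT over the 169 was 0.49. With 0.5 added, the limit of 200 was reached, 141 of the 169 were chosen again and the median was 0.94. A minimum of 5 CPM in unheated TL1 chose 104 genes, and TMM library sizes chose 153, of which 141 were among the 169. Without 1 library, 168 to 186 genes were chosen, 148 to 163 of them among the 169, and the median line difference at HT was 0.80 to 0.89. The held-out median averaged 1.11 with at most 100 genes kept and 0.69 with 5 added.

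Counts of called genes stayed within 1.5 times of the main count under every alternative run. For the line difference at HT they were 83 to 86, and 81 to 89 without 1 library. For the heat change in TL1 they were 139 to 145, and 138 to 147 without 1 library. For the heat change in *GmMYB21a-OE2* they were 12 to 13, and 12 to 14 without 1 library. For the interaction they were 97 to 105, and 93 to 103 without 1 library, and at NT they were 0 throughout. With the replicate block the counts were 83 at HT, 0 at NT, 142 in TL1, 13 in *GmMYB21a-OE2* and 97 for the interaction. Replicate numbers did not pair the samples: correlations of same-numbered libraries' deviations ran from -0.30 to 0.27, and 2 of 18 were over 0.1. The naming rule picked 29 genes before its limit on unannotated genes, of which 26 were called at HT and 2 lost the call without 1 library. The genes not called were the 3 with the smallest heat changes in *GmMYB21a-OE2*, which are unannotated and not named here.

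Limits are the 3 libraries a group, the single overexpression line, the low level of many of the genes and the annotation of 65 of 169. Promoter motif shares were planned and not run, since promoter sequences were not part of the files used here.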
